A study of Homo sapiens with 6 samples.

Results

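The erythroid transcription factors were taken as 10 genes named for their known roles in red cell development, GATA1, GATA2, KLF1, TAL1, LMO2, LDB1, NFE2, GFI1B, ZFPM1 and MYB, among 25702 gene identifiers counted in each library. All 10 had enough counts to be tested. RNA came from K562 cells, an established line derived from chronic myeloid leukaemia with erythroid features, after transfection with a pCMV-HA plasmid. The plasmid was empty (EV), carried MXD3, or carried the fusion STIM1::MXD3, and each of these 3 groups had 2 libraries, numbered 1 and 2 in the labels and described by the study as independent transfections. All groups were transfected, no other treatment was given, the CMV promoter drove the inserts, and RNA was taken from the transfected pool, with no sort for cells that had taken up plasmid. A transcript level therefore averages over all cells, and fewer cells that express a gene cannot be told apart from less of its RNA per cell.

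Red cell development is directed by a small set of DNA-binding proteins that work together. GATA1 and GATA2 bind GATA sequences. GATA2 prevails in progenitors and GATA1 replaces it as cells mature. TAL1 pairs with E proteins on E-box sequences and is joined to GATA1 by LMO2 and LDB1, which bridge the complex. KLF1 binds CACCC sequences in globin and other erythroid genes, NFE2 acts at the globin locus control region, GFI1B is a repressor, ZFPM1 (FOG-1) is the cofactor of GATA1, and MYB keeps progenitors dividing. MXD3 belongs to the family that pairs with MAX on CACGTG sequences and opposes MYC, and in STIM1::MXD3 its putative repression domain is lost. The comparisons asked whether either construct altered the RNA of these factors in an erythroid line.

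Libraries held 53048343 to 63835779 counts, in which 17375 to 17836 genes were detected, and mitochondrial genes took between 1.45% and 3.73% of the counts. The transfected gene was checked first. MXD3 stood at 9.33 and 11.7 CPM (counts scaled to a common library size and composition by TMM) in EV, 2523 and 2162 with MXD3, and 1975 and 1849 with STIM1::MXD3. STIM1, which tells the constructs apart, stood at 205 and 176 CPM in EV, 187 and 159 with MXD3, and 471 and 453 with STIM1::MXD3, so both genes followed the labels. Markers of the cell type were also checked. All 12 erythroid markers were detected, with a summed level of 7058 to 10010.1 CPM per library, while 12 megakaryocyte markers summed to 103 to 121 CPM, 15 granulocyte and monocyte markers to 63.2 to 97.35 CPM, and 13 lymphocyte markers to 15.8 to 23.5 CPM. The platelet genes GP1BB and GP9, the neutrophil gene S100A8 and the lymphocyte genes CD8A and MS4A1 had 0 counts in every library. Under 1 CPM in every library were 7 of 12 megakaryocyte, 8 of 15 granulocyte and monocyte, and 11 of 13 lymphocyte markers. The others reached 1 CPM in at least 1 library, among them SPI1 at 31.4 to 60.7 CPM. HBB, the adult beta globin, stayed under 1 CPM in every library, and the near-identical copies HBG1 and HBG2, and HBA1 and HBA2, make the counts of those single globin genes uncertain.

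Promoter sequence was examined because the transfected proteins and several of the factors bind short DNA words. RefSeq promoters (GRCh38.p14, 250 bases before and 50 after a transcription start) matched 8 of the 10 genes with 11 windows, while LMO2 and NFE2 are named only. CACGTG, the word bound by MAX dimers, was in 0 of the 11 windows, against 7.26% of 35116 promoters in the same table. The GATA word, meaning GATA with A or T before it and A or G after it on either strand, was in 4 windows of 3 genes, KLF1, TAL1 and GFI1B, against 25.0% of all promoters. The 250 bases before the start are shown for those genes, with the GATA letters in capitals, and for GFI1B the downstream of its starts is shown, since its other window holds its GATA letters after the start. For TAL1 the upstream of its starts is shown, as its other window held none. KLF1 lies at chr19:12887202-12887451 (minus strand), TAL1 at chr1:47232336-47232585 (minus strand) and GFI1B at chr9:132978444-132978693 (plus strand), and each is written in the direction of its gene.
KLF1: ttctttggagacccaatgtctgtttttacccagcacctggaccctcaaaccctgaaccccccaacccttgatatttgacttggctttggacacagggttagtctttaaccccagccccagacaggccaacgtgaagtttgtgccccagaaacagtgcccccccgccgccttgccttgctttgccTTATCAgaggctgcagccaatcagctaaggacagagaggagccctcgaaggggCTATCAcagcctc
TAL1: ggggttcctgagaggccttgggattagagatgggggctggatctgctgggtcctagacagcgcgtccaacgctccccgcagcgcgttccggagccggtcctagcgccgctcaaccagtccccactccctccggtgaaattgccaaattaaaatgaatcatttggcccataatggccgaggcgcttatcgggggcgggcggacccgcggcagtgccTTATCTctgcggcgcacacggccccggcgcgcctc
GFI1B: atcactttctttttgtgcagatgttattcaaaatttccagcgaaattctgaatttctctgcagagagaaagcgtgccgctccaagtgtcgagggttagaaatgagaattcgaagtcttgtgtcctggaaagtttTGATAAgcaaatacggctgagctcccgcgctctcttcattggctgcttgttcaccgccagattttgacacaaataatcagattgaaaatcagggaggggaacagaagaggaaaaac
Counted from the start along the gene, the GATA letters of KLF1 began at -66 and -13, on the opposite strand. In TAL1 they began at -35, also on the opposite strand, and in GFI1B at -116. The CACCC-type letters CCNCNCCC, searched on both strands, were in 8 windows of 7 genes against 56.2% of all promoters, and KLF1 was the gene of the 8 that lacked them. CAGATG or CAGCTG, the E-box letters of TAL1 complexes, were in 3 windows of 2 genes, GATA2 and GFI1B, against 29.8%. The NFE2 letters TGAGTCA were in 0 windows, against 4.95%. These matches describe letters only, and a word that was not found in a window may lie elsewhere in the gene. No word overlapped with a word of another kind.

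Neither construct was followed by a called difference in any of the 10 factors. With STIM1::MXD3 against EV, 0 of 10 passed an adjusted p of 0.05 (edgeR quasi-likelihood F test, Benjamini-Hochberg), against 0.00648% of 15431 genes, that is 1 gene, MXD3. No factor had an unadjusted p under 0.05 (0 of 10), against 0.953% of all genes, and DESeq2 likewise called 0 and found 0 under 0.05. With MXD3 against EV the same counts were 0 of 10 called (0.00648% of all genes, also MXD3) and 0 of 10 under the unadjusted threshold (1.86% of all genes), and with STIM1::MXD3 against MXD3 they were 0 of 10 (0.0%) and 0 of 10 (1.01%), again with 0 and 0 by DESeq2 in both. Both comparisons against EV use the same EV libraries, and with 2 libraries against 2 an exact permutation test could not give a two-sided p below 0.333. STIM1, with a log2 fold change of 1.28 with the fusion against EV, was not called either. A difference of that size can thus be missed here.

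**Figure D1:**
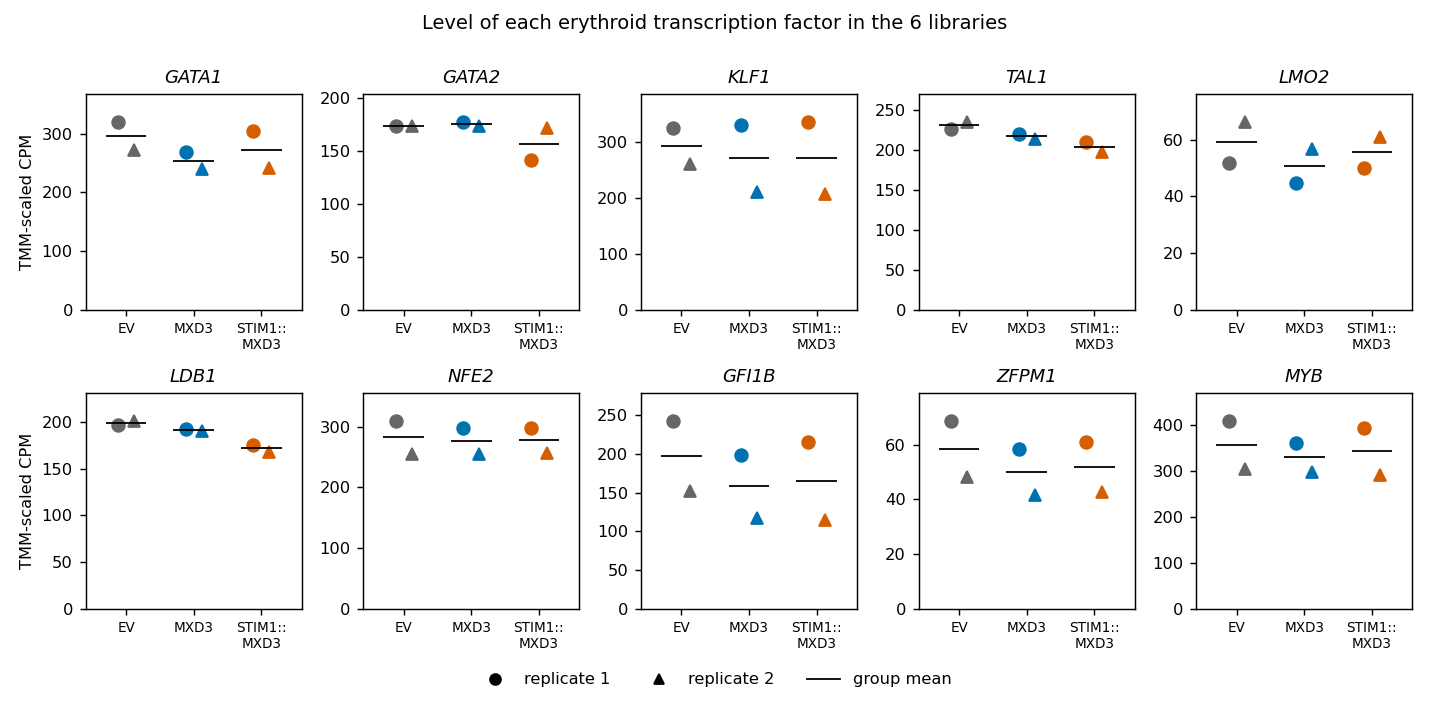
TMM-scaled CPM (vertical axes, linear from 0) of the 10 factors in each library, by plasmid group, with circles for replicate 1, triangles for replicate 2 and a bar for the mean of the 2. GFI1B, KLF1, ZFPM1 and MYB are lower in replicate 2 of every group, by more than the groups differ, while the TAL1 and LDB1 libraries of a group lie close together.

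GATA1 (Gene ID 2623; GRCh37 chromosome X, 48644948 to 48652718, plus strand), the main activator of erythroid genes, stood at 320.1 and 273 CPM in EV (replicate 1, then 2, here and for the other factors), 268 and 239.8 CPM with MXD3, and 304 and 241 CPM with STIM1::MXD3. Both MXD3 libraries lay below both EV libraries, whereas the fusion libraries overlapped with EV. The log2 fold change was -0.22 ± 0.16 (SE) with MXD3, with a 95% interval of -0.61 to 0.16 (unadjusted p = 0.213, edgeR), and -0.12 ± 0.16 with the fusion (-0.50 to 0.26). With MXD3 it ran from -0.10 without EV replicate 1 to -0.33 without EV replicate 2. GATA2 (Gene ID 2624; chromosome 3, 128198270 to 128212044, minus strand), its counterpart in progenitors, varied little across EV and MXD3, at 174 and 174 CPM in EV and 177 and 173 CPM with MXD3. The fusion libraries held 141 and 172 CPM, both under the other 4 libraries, of which the lowest held 173 CPM. Only the fusion library numbered 1 stood apart. The difference was -0.15 ± 0.13 against EV (-0.47 to 0.17, unadjusted p = 0.304, edgeR) and -0.16 ± 0.13 against MXD3 (unadjusted p = 0.266, edgeR), and without that library it was -0.01 against EV. GATA2 lies opposite an antisense gene, GATA2-AS1, which shares 78 exon bases with it and was not counted separately.

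Per kilobase of exon, GATA1 exceeded GATA2 in all 6 libraries. The ratio of their levels was 5.83 and 4.97 in EV, 4.79 and 4.38 with MXD3, and 6.83 and 4.44 with STIM1::MXD3. The 2 fusion libraries held both the highest ratio and one of the lowest, so the ratio varied within the fusion group over nearly its whole range. ZFPM1 (Gene ID 161882; chromosome 16, 88519688 to 88603439, plus strand), the GATA1 cofactor, stood at 68.6 and 48.2 CPM in EV, 58.2 and 41.4 CPM with MXD3, and 60.9 and 42.8 CPM with STIM1::MXD3. Each group held a high and a low library and all groups overlapped. The log2 fold change was -0.17 ± 0.26 with the fusion (-0.79 to 0.44) and -0.23 ± 0.26 with MXD3 (-0.85 to 0.39).

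Of the bridging complex, TAL1 and LDB1 were ordered by plasmid, whereas LMO2 was not. The share of all genes with such an order over the 3 groups was not counted. TAL1 (Gene ID 6886; chromosome 1, 47681962 to 47697897, minus strand) stood at 227 and 236 CPM in EV, 221 and 214 CPM with MXD3, and 209.8 and 198 CPM with STIM1::MXD3. No library of a group overlapped with another group, in the order EV, MXD3, fusion. The difference was -0.18 ± 0.12 with the fusion against EV (-0.46 to 0.09, unadjusted p = 0.157, edgeR), -0.09 ± 0.12 with MXD3 against EV (unadjusted p = 0.474, edgeR) and -0.10 ± 0.12 between the constructs (unadjusted p = 0.435, edgeR). LDB1 (Gene ID 8861; chromosome 10, 103866246 to 103880125, minus strand), through which the complex forms loops between enhancers and promoters, stood at 197 and 201 CPM in EV, 193 and 190.4 CPM with MXD3, and 175 and 168 CPM with the fusion. These groups did not overlap either, in the same order. LDB1 had the smallest p of any factor, at -0.21 ± 0.11 with the fusion against EV (-0.48 to 0.05, unadjusted p = 0.0992; adjusted p = 1.00, edgeR with Benjamini-Hochberg adjustment), or 0.862 of the EV level. It differed by -0.05 ± 0.11 with MXD3 against EV and by -0.16 ± 0.11 between the constructs. Whichever library was left out, TAL1 with the fusion stayed between -0.23 and -0.15 and LDB1 between -0.24 and -0.19, and neither passed the test. LMO2 (Gene ID 4005; chromosome 11, 33880122 to 33913623, minus strand) did not share this order. It stood at 51.8 and 66.4 CPM in EV, 44.8 and 56.9 CPM with MXD3, and 50.1 and 61.0 CPM with the fusion, so that all groups overlapped. Its difference was -0.09 ± 0.19 with the fusion and -0.22 ± 0.19 with MXD3, and between the constructs it was 0.13 ± 0.19. The value with MXD3 ran from -0.03 without EV replicate 2 to -0.41 without MXD3 replicate 2. TAL1 shares 845 exon bases with a long noncoding gene on the other strand that was not counted.

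KLF1 (Gene ID 10661; chromosome 19, 12995236 to 12998015, minus strand) differed by less between plasmids than within them. It stood at 324 and 260.3 CPM in EV, 329 and 211 CPM with MXD3, and 335 and 206 CPM with STIM1::MXD3. The libraries numbered 1 were near each other at 324 to 335 CPM, and those numbered 2 were all lower. Its log2 fold change was -0.11 ± 0.29 with either construct against EV, with an interval of -0.80 to 0.58 for each. NFE2 (Gene ID 4778; chromosome 12, 54685895 to 54694799, minus strand) stood at 309 and 255 CPM in EV, 297 and 255 CPM with MXD3, and 298 and 256 CPM with the fusion. All 3 libraries numbered 2 lay between 255 and 256 CPM. NFE2 gave the smallest difference of the 10 with the fusion, -0.03 ± 0.16 (-0.40 to 0.35), and it was -0.03 ± 0.16 with MXD3 as well.

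GFI1B (Gene ID 8328; chromosome 9, 135819387 to 135867074, plus strand), a repressor needed in both red cells and platelets, varied most. It stood at 243 and 152 CPM in EV, 199 and 117 CPM with MXD3, and 215 and 115 CPM with STIM1::MXD3. Within each number the EV library was the highest, but the groups overlapped. The log2 fold changes were the largest of the 10 against EV, -0.26 ± 0.38 with the fusion and -0.32 ± 0.38 with MXD3, and so were their intervals, -1.16 to 0.64 and -1.22 to 0.58. Its exons share 349 bases with those of TSC1 on the other strand, so some of its counts may belong to that gene. MYB (Gene ID 4602; chromosome 6, 135502446 to 135540311, plus strand) stood at 409 and 304 CPM in EV, 361 and 299 CPM with MXD3, and 395 and 290.4 CPM with the fusion. All groups overlapped. The difference was -0.06 ± 0.21 with the fusion (-0.56 to 0.44) and -0.11 ± 0.21 with MXD3 (-0.62 to 0.39).

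**Figure D2:**
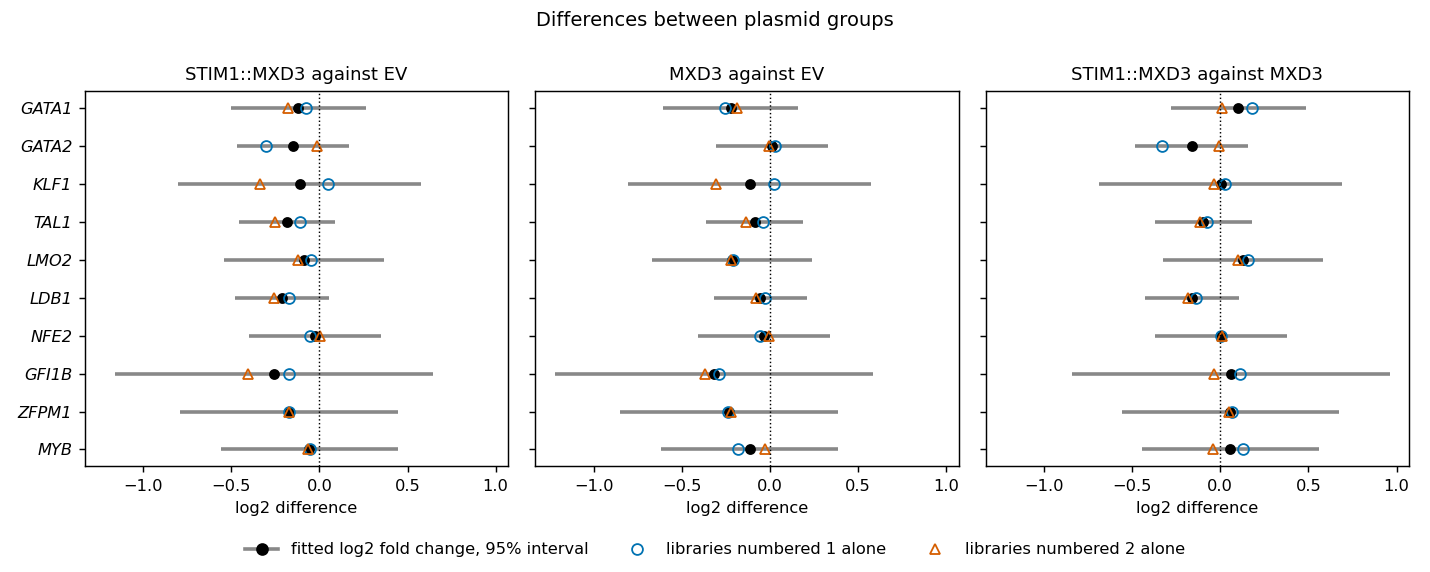
Fitted log2 fold change of each factor with its 95% interval (black points and grey bars, edgeR over 6 libraries) in the 3 comparisons, beside the log2 difference between the libraries numbered 1 alone (blue circles) and numbered 2 alone (orange triangles). Every interval crosses 0, and GFI1B and KLF1 have the widest.

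Although 0 factors were called, most differences against EV had the same sign. With STIM1::MXD3, 10 of 10 fitted values were below 0, from -0.26 to -0.03 with a median of -0.13, against 47.9% of all genes below 0 and a median of 0.01 over all genes. With MXD3, 9 of 10 were below 0, with a median of -0.11, against 49.8% of all genes, and GATA2, at 0.01, was the exception. Between the constructs 3 of 10 were below 0 (GATA2, TAL1 and LDB1), with a median of 0.03, against 47.9%. This direction changed when some single libraries were left out, in fits without a term for the replicate number. Such a fit leaves 1 group with a single number, and 6 of 10 factors were lower in replicate 2 of every group. The part of the number in these changes was not tested. Without EV replicate 1, only 4 of 10 were below 0 with the fusion (median 0.03) and 4 with MXD3 (median 0.03). Without STIM1::MXD3 replicate 2 it was 4 with the fusion (median 0.04), and without MXD3 replicate 2 it was 5 with MXD3 (median -0.004). Leaving out EV replicate 2 gave 9 in each comparison, with medians of -0.21 and -0.21, and leaving out the first fusion or MXD3 library gave 9 as well, with medians of -0.27 and -0.19. Between the constructs, the count below 0 was 4, 8, 9 or 4 without MXD3 replicate 1, MXD3 replicate 2, fusion replicate 1 or fusion replicate 2. GATA2, TAL1 and LDB1 with the fusion kept their sign in each of these fits.

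Taken number by number, 8 of 10 factors were lower in both libraries with the fusion than in the EV library of that number (25.1% of all genes), and 8 of 10 with MXD3 (31.5%). Between the constructs 3 of 10 were lower in both (26.1%) and 4 higher in both, for which the share of all genes was not counted. Groups that did not overlap were counted too. With the fusion against EV, 3 of 10 lay lower with no overlap (GATA2, TAL1 and LDB1), against 10% of all genes, and 0 lay higher, against 12.0%. With MXD3 against EV it was also 3 lower (GATA1, TAL1 and LDB1), against 14.8%, and 0 higher, against 16.2%. The fusion lay below MXD3 with no overlap for 3 (GATA2, TAL1 and LDB1), against 10.2%, and above it for 0, against 10.9%. As the factors work in shared complexes and were chosen together, they are not independent of each other, and these counts are a description.

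For most factors the 2 libraries of a group differed more than the groups did. Replicate 2 was below replicate 1 in all 3 groups for 6 of 10 factors, against 30.2% of all genes, and above it in all 3 groups for 1, LMO2, against 28.6%. The log2 difference (replicate 2 over replicate 1, in EV, MXD3 and STIM1::MXD3) was -0.68, -0.76 and -0.91 for GFI1B, so that replicate 2 held on average 0.581 of the level of replicate 1. KLF1 differed by -0.32, -0.65 and -0.70 and ZFPM1 by -0.51, -0.49 and -0.51. The 3 values of ZFPM1 were nearly the same, while those of KLF1 and GFI1B were larger with the constructs than in EV. MYB differed by -0.43, -0.27 and -0.44, GATA1 by -0.23, -0.16 and -0.34, and NFE2 by -0.28, -0.22 and -0.22. LMO2 went the other way by 0.36, 0.34 and 0.28, and GATA2, TAL1 and LDB1 had mixed signs. For 7 of 10 factors the mean of the 3 values exceeded every fitted difference between plasmids.

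**Figure D3:**
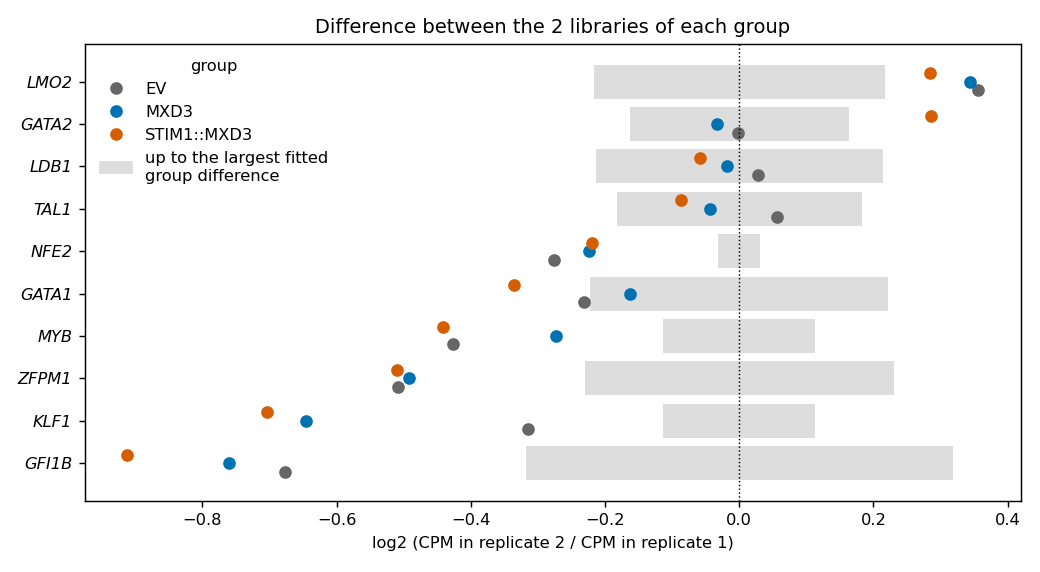
Log2 ratio of CPM in replicate 2 to CPM in replicate 1 (horizontal axis) for each factor, with 1 point per plasmid group and a grey band that reaches to the largest of its 3 fitted group differences on either side of 0. The points of GFI1B, KLF1, ZFPM1, MYB, NFE2 and LMO2 lie outside their bands in all groups, and those of TAL1 and LDB1 inside.

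Set among 10250 genes with a mean of at least 5 CPM, the mean replicate difference of GFI1B was at the 0.829% point from the low end, that of KLF1 at 3.11%, of ZFPM1 at 4.32% and of MYB at 9.63%, with LMO2 at 87.9%. The median absolute difference was 0.29 over the 10 factors and 0.20 over those genes. The sum of the erythroid markers went with the number as well, though a sum is weighted towards its highest genes and single markers were not counted. The summed level of the 12 erythroid markers was 8864 and 7917 CPM in EV, 9451 and 7928 CPM with MXD3, and 10010.1 and 7058 CPM with the fusion. Replicate 2 was the lower in every group. Mitochondrial shares did not follow the number, at 2.73% and 1.54% in EV, 1.45% and 3.73% with MXD3 and 1.56% and 2.90% with the fusion, nor did total counts. What the number marks is not given in the labels.

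Levels of different genes were compared as mean CPM per kilobase of exon over the 6 libraries. GATA1 at 177 and KLF1 at 172 led, at percentiles 98.9 and 98.9 of 14227 tested genes, followed by NFE2 at 118. MYB at 62.4, LDB1 at 49.6, TAL1 at 38.1, GATA2 at 34.3 and GFI1B at 28.4 came next, and LMO2 at 19.1 and ZFPM1 at 8.66 came last. Even ZFPM1 stood at percentile 66.0. In this order the ranges over libraries overlapped between all neighbours except NFE2 and MYB, LDB1 and TAL1, and LMO2 and ZFPM1. The order depends on the length used: with the canonical transcript in place of all exons, GFI1B was 3.39 times higher, at 96.5, and moved from rank 8 to rank 4.

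Each factor was then set beside other members of its gene family, since related proteins can bind the same sequences. GATA1 held 82.9% and GATA2 16.1% of the summed family level per kilobase, and GATA5 followed with 0.879%. GATA3, GATA4 and GATA6 stayed under 1 CPM in every library. Among KLF1 to KLF13, the KLF genes taken here, KLF1 held 71.6% and KLF3 9.37%. LDB1 held 99.998% against LDB2, which had 2 counts in all 6 libraries together, and GFI1B held 99.2% against GFI1. TAL1 was the factor with a relative well above it: LYL1, a close relative known from T cell leukaemia, stood at 110.0 CPM per kilobase, or 73.7% of that family, against 25.5% for TAL1. LMO2 held 72.6% and LMO4 27.4%, while LMO1 had 0 counts. NFE2 held 66.4% and NFE2L1 25.9%. ZFPM1 held 57.4% against ZFPM2 with 42.6%, and MYB held 42.7% against 57.3% for MYBL2, but with canonical lengths both orders turned, to 48.5% for ZFPM1 and 51.6% for MYB.

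**Figure D4:**
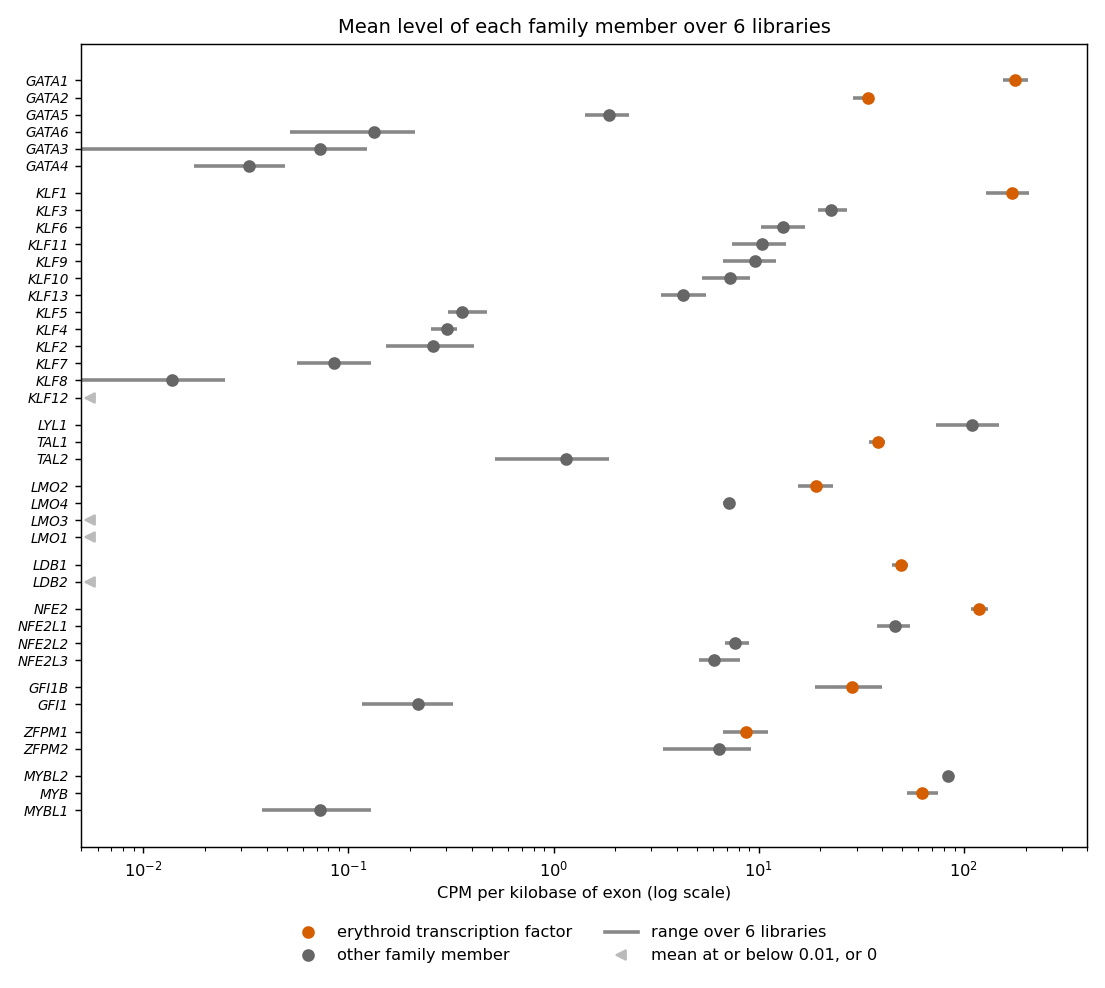
Mean CPM per kilobase of exon over the 6 libraries (horizontal log axis) of the 10 factors (orange) and of other family members (grey), with a line for the range over libraries. Arrows near the left edge stand for the genes with the lowest means. GATA1, KLF1, NFE2, LDB1, LMO2 and GFI1B lead the family members shown, whereas LYL1 lies above TAL1 and MYBL2 above MYB.

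Of the 27 genes listed as relatives 23 were tested, and 0 were called in any comparison. KLF13 was listed with the other lineage factors below instead. Its unadjusted p of 0.0348 (edgeR) with MXD3 against EV is therefore not counted here. With the fusion 13 of 23 were below 0 (median -0.05), with MXD3 11 (median 0.03) and between the constructs 13 (median -0.06). Over all genes 47.9%, 49.8% and 47.9% were below 0. GATA3 had the smallest p with the fusion (-2.70 ± 1.11, unadjusted p = 0.0455, edgeR), at 0.412 and 0.363 CPM in EV and 0 and 0.111 CPM with the fusion, which is 87 counts in all 6 libraries. It was the relative with an unadjusted p under 0.05, against 0.953% of all genes in that comparison. GATA6 (1.32 ± 0.56) and KLF2 (1.04 ± 0.45), both near or under 1 CPM, followed. Within this list, the smallest p with MXD3 belonged to NFE2L3 (0.44 ± 0.20), MYBL1 (0.98 ± 0.55) and KLF2 (0.79 ± 0.45). Between the constructs it belonged to GATA3 (-2.34 ± 1.11), GATA6 (0.91 ± 0.54) and TAL2 (-0.70 ± 0.56).

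A further 29 genes encode partners of the factors, such as E proteins, SSBP proteins that stabilise LDB1, small MAF proteins that pair with NFE2, the NuRD repressor and the acetylases CREBBP and EP300. All were tested and 0 were called. With the fusion 23 of 29 were below 0, from -0.30 to 0.25 with a median of -0.08, with SSBP3 (-0.19 ± 0.12), GATAD2B (-0.26 ± 0.17) and EP300 (-0.18 ± 0.12) at the smallest p. With MXD3 18 were below 0 (median -0.06), led by EP300 (0.16 ± 0.12), MTA1 (-0.19 ± 0.19) and HDAC1 (-0.11 ± 0.12). Between the constructs 19 were below 0 (median -0.08). Over all genes 47.9%, 49.8% and 47.9% were below 0 in these 3 comparisons. EP300 was the 1 partner with an unadjusted p under 0.05 between the constructs, against 1.01% of all genes. EP300, a coactivator that acetylates GATA1, stood at 103 and 90.7 CPM with MXD3 and 75.9 and 76.4 CPM with the fusion, beside 85.0 and 88.1 CPM in EV. The groups did not overlap, while 10.2% of all genes lay lower with the fusion than with MXD3 with no overlap. The difference between constructs was -0.35 ± 0.12 (-0.64 to -0.06, unadjusted p = 0.0243; adjusted p = 1.00, edgeR with Benjamini-Hochberg adjustment). SSBP2 (-0.12 ± 0.13) and MAFG (-0.10 ± 0.12) followed.

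Among 23 other factors of blood lineages 20 were tested and 0 were called, since ERG and FLI1 were too low and BCL11A, which silences fetal globin, had 0 counts. With the fusion 12 of 20 were below 0 (median -0.02), with MXD3 8 (median 0.03), and between the constructs 12 (median -0.08). Over all genes 47.9%, 49.8% and 47.9% were below 0. KLF13 with MXD3 was at 0.45 ± 0.17 (unadjusted p = 0.0348, edgeR), with 31.7 and 39.0 CPM in EV, 52.3 and 43.9 CPM with MXD3, and 34.4 and 39.8 CPM with the fusion. SPI1 (PU.1), the myeloid factor that opposes GATA1, was at -0.50 ± 0.25 with MXD3 (unadjusted p = 0.0880, edgeR) and 0.34 ± 0.25 between the constructs. NFIA, which favours the erythroid lineage, was at 0.24 ± 0.14 with MXD3 and at -0.38 ± 0.14 between the constructs (unadjusted p = 0.0340, edgeR). KLF13 and NFIA were the factors of this list with an unadjusted p under 0.05. That threshold was passed by 1.86% of all genes with MXD3 against EV and 1.01% between the constructs. The fusion libraries held 20.9 and 20.6 CPM of NFIA and the MXD3 libraries 27.7 and 26.3 CPM, with no overlap. Between the constructs 10.2% of all genes lay lower with no overlap. KLF13 differed by -0.38 ± 0.17 between the constructs, and with the fusion against EV the smallest p belonged to MEIS1 (-0.37 ± 0.30), STAT5B (-0.13 ± 0.11) and E2F2 (0.37 ± 0.35).

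Erythroid genes known to lie under these factors, for globins, haem synthesis, the membrane skeleton and blood group proteins, were counted last. All 60 were tested and 0 were called. With the fusion 43 of 60 were below 0, with a median of -0.07, and with MXD3 39 were, from -0.63 to 0.62 with a median of -0.10. Between the constructs 24 of 60 were below 0, with a median of 0.03. Over all genes 47.9%, 49.8% and 47.9% were below 0 in these 3 comparisons. Their summed level followed the replicate number as that of the factors did, at 18614 and 16118 CPM in EV, 18733 and 15454 CPM with MXD3, and 19551 and 14163 CPM with the fusion. The fusion group thus held both the highest and the lowest sum. This list shares genes such as SLC4A1 and EPOR with the erythroid markers above, so the sums of both lists are not independent. Of single genes, SLC4A1, the anion exchanger band 3, stood at 52.4 and 43.2 CPM in EV, 31.5 and 38.4 CPM with MXD3, and 34.9 and 37.8 CPM with the fusion. EV was the highest group with no overlap, and the differences were -0.45 ± 0.16 with MXD3 (unadjusted p = 0.0287, edgeR) and -0.40 ± 0.16 with the fusion (unadjusted p = 0.0471, edgeR). CPOX (-0.23 ± 0.14 with the fusion), EPB42 (-0.63 ± 0.28 with MXD3), ANK1 (0.22 ± 0.11 with MXD3, -0.18 ± 0.11 between the constructs) and EPOR (-0.21 ± 0.14 between the constructs) were other genes with a small p.

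**Figure D5:**
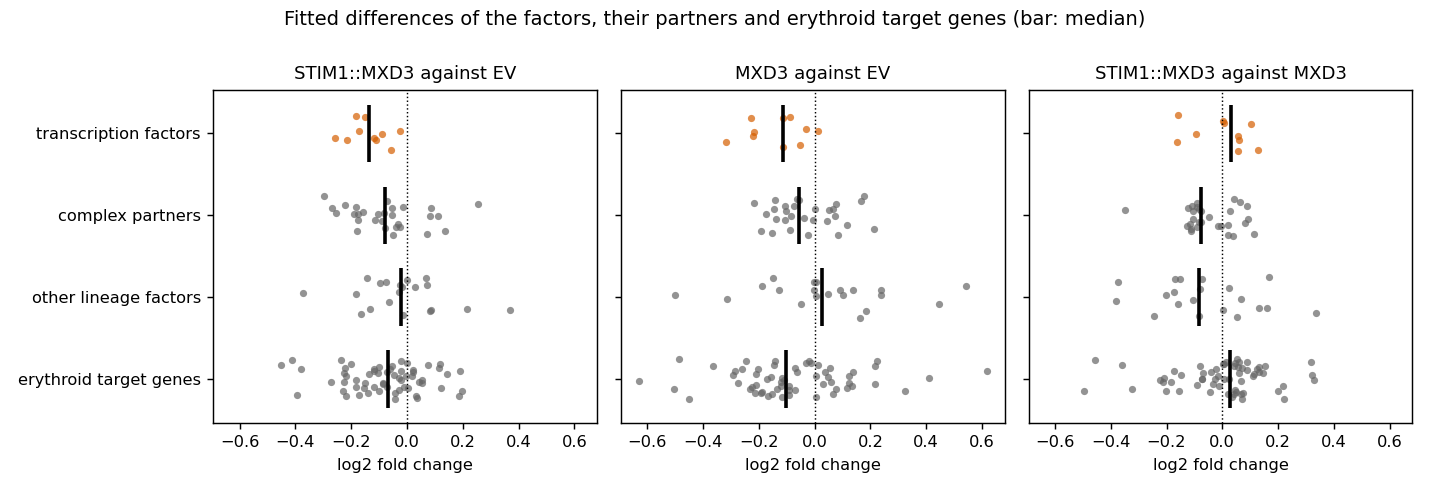
Fitted log2 fold changes (horizontal axis) of the 10 factors, 29 complex partners, 20 other lineage factors and 60 erythroid target genes in the 3 comparisons, with 1 point per gene and a black bar at the list median. Medians lie between -0.13 and 0.03 over these lists and comparisons, and 0 genes shown passed the test over all genes.

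To see which genes followed the factors over the 6 libraries, the 10249 other genes with a mean of at least 5 CPM were ranked by Pearson's r of log2 CPM with each of 4 factors, as a description. Among the genes that followed GATA1 most closely were KDELR1 (r = 0.998) and DAPP1 (0.997), and 1157 genes reached r of 0.9. KLF1 was followed by IRS2 (0.999), AFG2B (0.998) and ATE1 (0.997), and 1541 genes reached 0.9. For MYB the genes were PAXX (0.998), KAT2B (0.998) and UCKL1 (0.997), with 1451 genes at 0.9. TAL1, whose libraries were ordered by plasmid rather than by number, had ATM (0.994), WIPF2 (0.989) and LSM14B (0.989), and only 35 genes reached 0.9. The 6 points share plasmids, numbers and library composition, and why many genes reach a high r was not tested.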

How the data were processed

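RNA of 6 K562 libraries was analysed, 2 in each of 3 plasmid groups, with group and replicate number taken from the labels. Each library came as 1 deposited table of raw counts by NCBI Gene ID, not normalised. The authors made poly A libraries, sequenced both ends and aligned to hg19, and the submitters' processing notes name HISAT2 2.2.1 and featureCounts 2.0.1. The annotation version and the use of strand were not given in the sources used here, so counts of overlapping or near-identical genes are uncertain. The study tested its counts with DESeq2. Low counts held more even than odd numbers (59.8% to 67.3% even), so both ends of a pair may have been counted, and halved counts were tried.

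Of 25702 identifiers 23696 matched a gene symbol and 22475 had a GRCh37 exon length. Unmatched identifiers held 0.225% to 0.277% of the counts and stayed in library sizes. Genes kept by filterByExpr (15431) entered 1 edgeR fit of all 6 libraries (edgeR 4.0.16, R 4.3.3) with TMM scaling, no covariate and two-sided quasi-likelihood F tests. Unadjusted p-values of single genes came from this fit, which shares its estimate of spread across genes, and adjustment was by Benjamini-Hochberg across the 15431 genes, called under 0.05. Errors are SE of log2 fold changes, and intervals are 95%. CPM, counts scaled by library size and TMM factor, took the place of raw counts as levels. Log2 CPM used a prior count of 2. P-values measure the spread between transfections of 1 cell line. Other settings were RLE size factors, DESeq2 1.42.0, no filter, the 4 compared libraries alone, a block, halved counts, each library left out, and CPM without TMM. The code was tested on simulated data. Promoters came from RefSeq (GRCh38.p14) and gene positions from GRCh37.

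The 10 factors and all lists (29 partners, 23 other lineage factors, 27 relatives, 60 erythroid genes, and markers of 4 blood cell types) were written from general knowledge and chosen with earlier results of these data known. All 10 factors were named in each comparison, and of each other list the 3 tested genes with the smallest unadjusted p, plus relatives by level. Genes most like 4 factors were the 3 with the highest r. GP1BB, GP9, S100A8, CD8A, MS4A1, HBB, BCL11A, ERG and FLI1, KLF3 and other globin genes were named outside this rule, as markers or for their levels, with values seen. A result for 1 gene of each of these kinds, erythroid genes and genes most like a factor, is not reported here.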

Additional observations from a re-analysis of the deposited data

How the results depend on the processing

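In every setting 0 of 10 factors passed the adjusted threshold in each comparison, and 262 of 300 refitted differences of a factor kept their sign and stayed uncalled. The other 38 changed sign, 36 of them on leaving out 1 library. Over left-out libraries, with the lone library of a group taken to vary like the others, the fusion against EV ran from -0.30 to 0.031 for GATA1, -0.50 to 0.19 for KLF1, -0.26 to 0.10 for LMO2, -0.16 to 0.12 for NFE2, -0.78 to 0.12 for GFI1B, -0.45 to 0.10 for ZFPM1 and -0.29 to 0.17 for MYB. MXD3 against EV ran from -0.46 to 0.16 for KLF1, -0.16 to 0.11 for NFE2, -0.73 to 0.062 for GFI1B, -0.48 to 0.048 for ZFPM1 and -0.31 to 0.12 for MYB. The fusion against MXD3 ran from -0.076 to 0.25 for GATA1, -0.39 to 0.35 for KLF1, -0.047 to 0.32 for LMO2, -0.11 to 0.11 for NFE2, -0.47 to 0.47 for GFI1B, -0.22 to 0.31 for ZFPM1 and -0.18 to 0.25 for MYB. Of the values that kept their sign, MXD3 against EV ran from -0.33 to -0.10 for GATA1 and from -0.41 to -0.03 for LMO2, and GATA2 ran from -0.31 to -0.01 in the fusion against EV and from -0.32 to -0.03 against MXD3. KLF1 between the constructs (0.003) was also -0.00012 with RLE size factors and -0.0024 with the replicate block. Over all genes, the fusion against EV called 1 gene, 3 with DESeq2, 2 with no filter and 3 with the block. MXD3 against EV called 1 gene, 3 with DESeq2 and 45 with the block, and between 1 and 2 over left-out libraries. The fusion against MXD3 called 0, but 1 with DESeq2, 1 with no filter and 1 with the block. The cause was not tested. The median level of the factors was 43.9 CPM per kilobase, and 76.8 with canonical transcript lengths, a setting chosen after seeing the data.

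The replicate numbers were not taken to pair the libraries, since nothing in the labels says what a number marks. Deviations of same-numbered libraries correlated over 15431 genes with r of 0.364 for the fusion and EV, 0.270 for MXD3 and EV, and 0.450 for the fusion and MXD3. With the replicate block, 10, 9 and 4 factors were below 0 in the fusion against EV, MXD3 against EV and the fusion against MXD3, with medians of -0.15, -0.12 and 0.02. An unadjusted p under 0.05 was then reached by 3 (TAL1, LDB1 and GFI1B), 4 (GATA1, LMO2, GFI1B and ZFPM1) and 0 of 10, against 8.5%, 13.9% and 6.49% of all genes in that fit, and the smallest adjusted p of a factor was 0.438, 0.125 and 0.775 (edgeR). The factors had between 2325 and 23176 counts in a library.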
